A study of Caenorhabditis elegans with 12 samples.

Results

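JMJD-2, a histone demethylase, had 816 binding sites in wild-type L3 larvae, and 403 of them (49.4%, 95% interval 45.9% to 52.9%) lay where the cohesin subunit SCC-1 or the corepressor scaffold SIN-3 was also bound. Among the 5870 merged sites of all 6 proteins, 1948 held SCC-1 or SIN-3 without JMJD-2, and the 49.4% was not tested against this background. The sites shared with JMJD-2 are described here. ChIP-seq of 6 proteins (JMJD-2, SCC-1, SIN-3, ZFP-1, BLMP-1 and TOP-2) was performed on whole animals of the N2 strain at the L3 stage, the third larval stage, with an antibody against each protein and 2 biological replicates, which makes 12 samples. The animals were wild type, and the chromatin came from all tissues, so a site shared by proteins need not be shared in the same cell. The files used here are 1 list of peaks per protein, which gives positions in the ce10 assembly without height, score or read count and combines both replicates. From these lists the sequencing depth is unknown, and the spread between replicates was not measured.

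The sites were chosen by the peak positions themselves. All peaks of the 6 lists were pooled, and peaks that shared at least 1 bp were merged, which gave 5870 intervals. Each of the 816 JMJD-2 peaks fell in an interval of its own. The 403 intervals with JMJD-2 and at least 1 of SCC-1 and SIN-3 made up 6.87% of all intervals. They fell into 3 classes: 191 held both partners (47.4%), 101 held SCC-1 without SIN-3 (25.1%), and 111 held SIN-3 without SCC-1 (27.5%). The other 413 JMJD-2 intervals held neither partner, and 1948 intervals held SCC-1 or SIN-3 without JMJD-2. Percentages are given with exact Clopper-Pearson 95% intervals, which cover counting error over intervals only. For their own analyses of binding sites, the authors left out intervals bound by many factors, which are thought to reflect nonspecific binding or artifacts of ChIP. No such filter was applied here, so the counts of proteins that share a site may include intervals of that kind.

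JMJD-2 belongs to the KDM4 family of Jumonji demethylases, which remove methyl groups from lysines of histone H3 that mark heterochromatin or transcribed genes. SCC-1 is the kleisin subunit that closes the cohesin ring, which holds sister chromatids together and, in mammals, extrudes chromatin loops. SIN-3 is a scaffold on which histone deacetylases are assembled and brought to chromatin. ZFP-1 is a PHD finger protein related to mammalian AF10, BLMP-1 is a zinc finger transcription factor related to mammalian Blimp-1, and TOP-2 is a type II topoisomerase that relieves supercoiling and entanglement of DNA.

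SCC-1 and SIN-3 often met at the same JMJD-2 site. Of the 292 JMJD-2 intervals with SCC-1, 191 (65.4%) also held SIN-3, and of the 823 SCC-1 intervals without JMJD-2, 287 (34.9%) did. Of the 302 JMJD-2 intervals with SIN-3, 63.2% held SCC-1, compared with 20.3% of the 1412 SIN-3 intervals without JMJD-2. Where 1 partner was missing the other was less frequent: 19.6% of the 514 JMJD-2 intervals without SIN-3 held SCC-1, and 21.2% of the 524 without SCC-1 held SIN-3. These counts come from the overlaps that chose the sites and are given as a description, with no test.

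The partner peaks were centered close to the JMJD-2 peak, and by median SCC-1 was closer than SIN-3. At sites with a single partner on X, the order was reversed (26 bp for SCC-1 and 18 bp for SIN-3). In intervals with both partners, the midpoints of JMJD-2 and SCC-1 were a median of 8 bp apart (quartiles 3.5 and 15.5 bp), and those of JMJD-2 and SIN-3 a median of 11 bp apart (quartiles 4.25 and 24.2 bp). In intervals with SCC-1 and no SIN-3, the median JMJD-2 to SCC-1 distance was 11 bp (quartiles 4.5 and 20.5 bp). In intervals with SIN-3 and no SCC-1, the median JMJD-2 to SIN-3 distance was larger, 34 bp (quartiles 13.5 and 79.5 bp). A SIN-3 midpoint lay within 50 bp of the JMJD-2 midpoint in 91.6% of intervals with both partners and in 59.5% of intervals with SIN-3 as the only partner. For SCC-1 the shares were 96.3% with both partners and 94.1% with SCC-1 as the only partner. The distance between SCC-1 and SIN-3 themselves had a median of 8 bp at JMJD-2 sites and 13.5 bp at the 287 intervals that held both without JMJD-2. The median peak was 246 bp wide for JMJD-2 and 235 bp for SCC-1 and for SIN-3, and the precision of the midpoints was not measured. Since overlap was required for membership, these distances are described and were not tested.

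**Figure D1:**
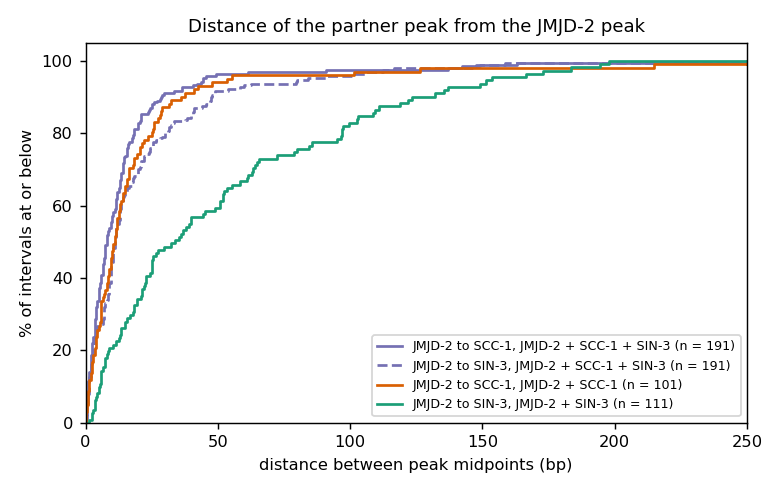
Cumulative share of intervals (y axis, %) against the distance between the JMJD-2 midpoint and the midpoint of the partner peak (x axis, bp, cut at 250 bp), with 1 line for each class and partner. The line for SIN-3 at sites without SCC-1 rises more slowly than the other 3, with a median of 34 bp against 8 to 11 bp.

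The shared bases gave the same picture. JMJD-2 and SCC-1 peaks had a median of 229 bases in common at intervals with both partners and 226 at intervals with SCC-1 only, and JMJD-2 and SIN-3 peaks had 224 and 207 in the matching classes. The median JMJD-2 peak was 244 bp wide at shared sites and 249 bp at sites without partner. In the 190 intervals with exactly 1 peak of each of the 3 proteins, the SCC-1 midpoint lay between the other two in 79 (41.6%), the JMJD-2 midpoint in 51 (26.8%) and the SIN-3 midpoint in 50 (26.3%), and 10 had tied midpoints. The SCC-1 midpoint was the nearer one to JMJD-2 in 112 of these intervals (58.9%), and the SIN-3 midpoint in 72 (37.9%).

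Single sites show the range. On III from 6971916 to 6972168 (ce10), 1 interval of 253 bp held JMJD-2, SCC-1 and SIN-3 peaks in which both partner midpoints were 0.5 bp from that of JMJD-2. By the larger of the 2 distances this was the smallest value in the class with both partners, tied with X from 5953185 to 5953421. The largest was at IV from 13462195 to 13462837, where the SCC-1 midpoint was 288 bp from JMJD-2 and shared no base with it, and a SIN-3 peak of 394 bp joined them. With SCC-1 as the only partner, the midpoints coincided at V from 1151363 to 1151693, an interval that also held ZFP-1 and BLMP-1, and at 2 others on V (12869994 to 12870249 and 15590279 to 15590485) that held JMJD-2 and SCC-1 alone. With SIN-3 as the only partner, the distance was smallest at I from 7740609 to 7740843 (1.5 bp) and largest at II from 7478698 to 7479153 (198 bp).

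Few sites were near the limit of the rule. At 1 member, on X from 16929439 to 16930827, no partner peak touched JMJD-2, and a BLMP-1 peak of 1176 bp bridged them. The SCC-1 and JMJD-2 midpoints were 731 bp apart, and the SCC-1 peak ended at 16929893 and the JMJD-2 peak began at 16930390. The next fewest shared bases were 57, with SCC-1 on V from 16537849 to 16538335, and 60, with SIN-3 on II from 7478698 to 7479153. Just outside the rule, SIN-3 peaks came within 35 bp of a JMJD-2 interval on I from 5176276 to 5176518, 37 bp on V from 12599203 to 12599444 and 72 bp on I from 108135 to 108333. JMJD-2 intervals without partner had a median gap of 11126 bp to the nearest SCC-1 or SIN-3 peak (quartiles 3476 and 26354 bp). The gap was within 500 bp for 22 of 413 (5.33%) and within 10000 bp for 196 (47.5%). Within 2 kb, SCC-1 was near 8.47% of these intervals and 8.57% of all intervals, and SIN-3 near 10.7% and 13.1%.

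Shared sites as a group held ZFP-1 more often than JMJD-2 sites without partner, and it was the sites with both partners that held it most. The classes with a single partner, at 15.8% and 20.7%, were near the 19.1% of sites without partner, a comparison that was not tested. A ZFP-1 peak was present in 109 of the 403 shared intervals (27.0%, interval 22.8% to 31.7%) and in 79 of the 413 JMJD-2 intervals without partner (19.1%, 15.4% to 23.3%; odds ratio 1.57, adjusted exact p = 0.026). For background, ZFP-1 was present in 15.9% of the 4059 intervals that held any of the other 5 proteins. With both partners the share was 70 of 191 (36.6%, 29.8% to 43.9%), compared with 16 of 101 with SCC-1 only (15.8%; odds ratio 3.06, adjusted exact p = 0.00143) and 23 of 111 with SIN-3 only (20.7%; odds ratio 2.21, adjusted exact p = 0.0164). Between the single-partner classes, SCC-1 only and SIN-3 only, no difference passed (odds ratio 0.721, interval 0.331 to 1.54, adjusted exact p = 0.601). Each p-value here and below is from Fisher's exact test, two-sided, and takes intervals as independent units. The Benjamini-Hochberg adjustment was over the 30 tests of the main setting, and for an alternative setting over the tests run under it. With proteins counted as present only within 250 bp of the JMJD-2 midpoint, the difference between shared sites and sites without partner no longer passed (26.4% and 18.8%, adjusted exact p = 0.0569). On the autosomes alone, the difference between both partners and SIN-3 only did not pass either (34.1% and 20.8%, adjusted exact p = 0.0694).

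BLMP-1, a sequence-specific factor, was also most frequent at sites with both partners, and this passed the test against SIN-3 only but not against SCC-1 only. It was present in 40 shared intervals (9.93%, interval 7.19% to 13.3%) and 24 JMJD-2 intervals without partner (5.81%, 3.76% to 8.52%), a difference that did not pass the test after adjustment (odds ratio 1.79, adjusted exact p = 0.11). The background share among intervals with any of the other 5 proteins was 6.09%. With both partners BLMP-1 was present at 28 of 191 (14.7%, 9.97% to 20.5%), compared with 4 of 111 with SIN-3 only (3.60%, 0.990% to 8.97%; odds ratio 4.58, adjusted exact p = 0.0084) and 8 of 101 with SCC-1 only (7.92%; odds ratio 1.99, interval 0.841 to 5.27, adjusted exact p = 0.308). Compared with the 1948 SCC-1 or SIN-3 intervals that lacked JMJD-2, the shared sites held more of both factors. ZFP-1 was in 27.0% of shared sites and 11.4% of those intervals (odds ratio 2.88, adjusted exact p = 6.35e-13), and BLMP-1 in 9.93% and 3.13% (odds ratio 3.41, adjusted exact p = 5.81e-07). These 2 groups differed in their mix of partners. SCC-1 and SIN-3 were both present in 191 of the 403 shared sites but in only 287 of the 1948 intervals. The ZFP-1 and BLMP-1 shares of those 287 were not computed, so the part of the partner mix in these differences was not tested.

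TOP-2 was rare in every class of interval. It had a peak in 4 of the 403 (0.993%, interval 0.271% to 2.52%), in 7 of the 413 JMJD-2 intervals without partner (1.69%) and in 1.26% of all intervals with any of the other 5 proteins. With SIN-3 as the only partner it was in 0 of 111 intervals, for which the exact interval reaches 3.27%. None of the 5 comparisons of TOP-2 passed (adjusted exact p from 0.473 to 0.705), and between shared sites and JMJD-2 sites without partner the interval of the odds ratio ran from 0.124 to 2.31.

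**Figure D2:**
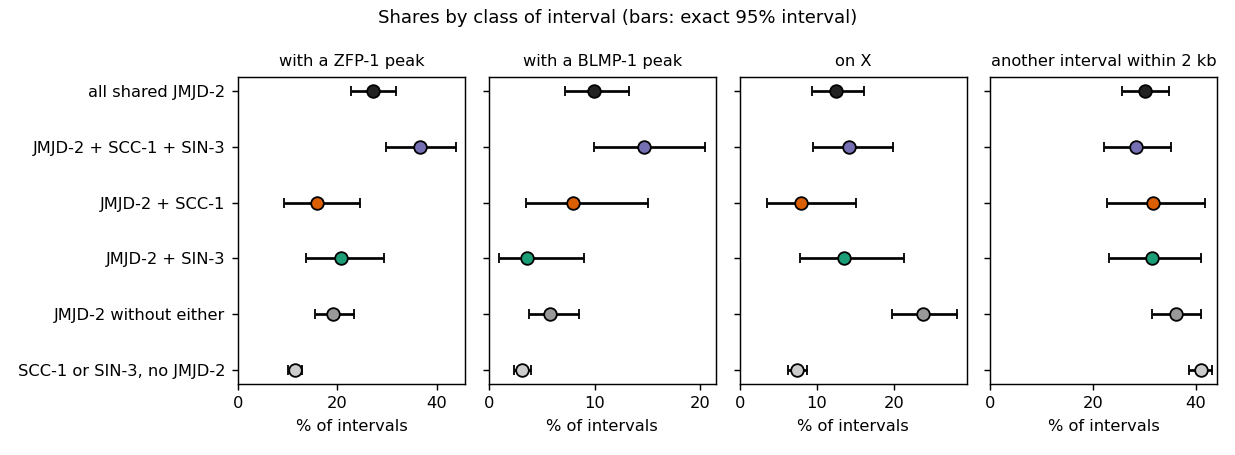
Share of intervals (x axes, %) that held a ZFP-1 peak, held a BLMP-1 peak, lay on X, or had another bound interval within 2 kb, for each class of interval (rows). Points are shares and bars exact 95% intervals; sites with both partners have the highest shares of ZFP-1 (36.6%) and BLMP-1 (14.7%), and JMJD-2 sites without either partner the highest share on X (23.7%).

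By composition, the most common kinds of shared site were JMJD-2, SCC-1 and SIN-3 alone (107 intervals), JMJD-2 with SIN-3 alone (85), JMJD-2 with SCC-1 alone (81) and the 3 proteins with ZFP-1 (54). Sites with 5 proteins numbered 16, all of them in the class with both partners. With 6 proteins in all, a site with a single partner could hold 5 only with ZFP-1, BLMP-1 and TOP-2 together. TOP-2 was in only 4 of the 403 shared sites, so this placement was nearly fixed by the counting. In 15 of the 16 sites the others were ZFP-1 and BLMP-1, and in 1, on X from 16681862 to 16682303, they were ZFP-1 and TOP-2. At these 16 sites 58 of the 64 other peaks had their midpoint within 50 bp of that of JMJD-2. The SCC-1 and SIN-3 peaks among them were required by the class. Over all sites with both partners, the share within 50 bp was 96.3% for SCC-1 and 91.6% for SIN-3. Over all shared sites that held them, it was 88.1% for ZFP-1 and 70% for BLMP-1. Whether sites with 5 proteins differ from these shares was not tested. On IV from 4390521 to 4390777, for example, the midpoints of the SCC-1, ZFP-1, SIN-3 and BLMP-1 peaks were 0.5, 3.5, 8 and -5 bp from that of JMJD-2, and on III from 3867438 to 3867712 they were 5, -3, -1.5 and 17 bp. The 6 peaks farther away were at 5 sites. BLMP-1 was at 99 bp on III from 13462893 to 13463281, and at V from 8606217 to 8606692 BLMP-1 was at 86.5 bp and ZFP-1 at -72 bp. SIN-3, a partner that chose the site, was at -80 bp on IV from 1659029 to 1659396. ZFP-1 was at -58.5 bp on II from 10174319 to 10174702, and the TOP-2 peak on X was at 162 bp.

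**Figure D3:**
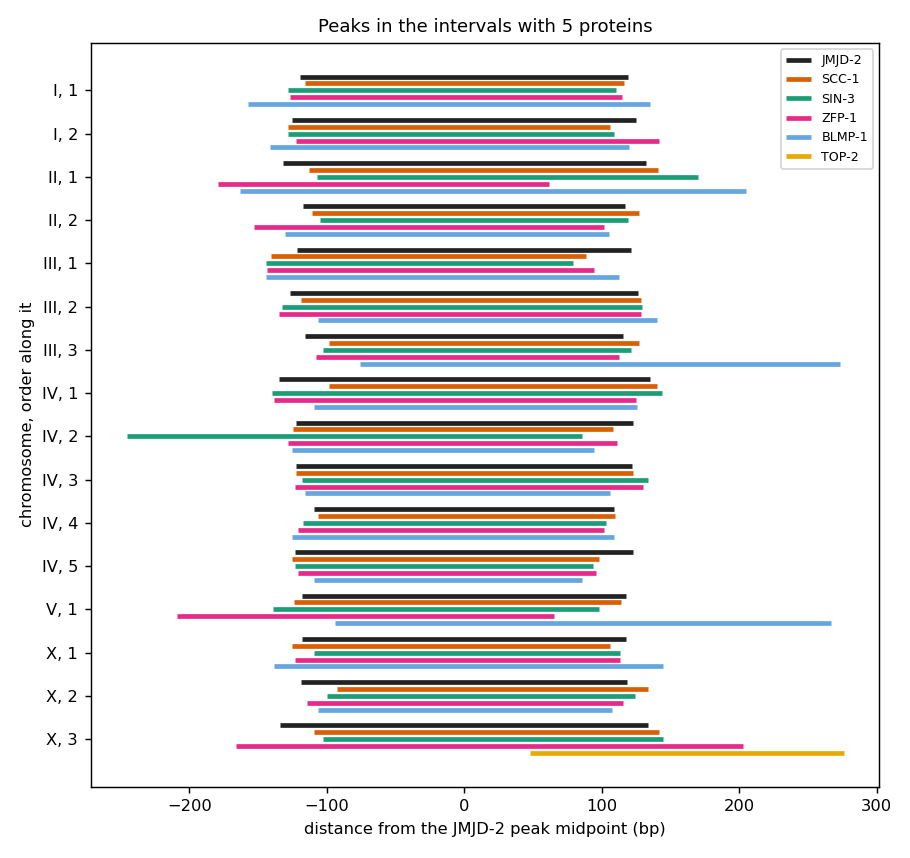
Peaks in the 16 intervals with 5 proteins, drawn to scale as bars around the midpoint of the JMJD-2 peak (x axis, bp). Each group of bars is 1 interval, named by its chromosome and its order along it; 58 of the 64 other peaks are centered within 50 bp of JMJD-2, and the farthest are BLMP-1 at 99 bp (last site on III) and TOP-2 at 162 bp (last site on X).

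ZFP-1 was also centered closer to JMJD-2 at shared sites than at sites without partner. The median distance was 17.5 bp at the 109 shared intervals with ZFP-1 and 31 bp at the 79 intervals without partner. For BLMP-1, whose peaks were wider (a median of 336 bp over its list, compared with 246 bp for JMJD-2), the medians were 21 bp (40 intervals) and 69.5 bp (24 intervals). These distances were not tested.

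Shared sites were less frequent on X than JMJD-2 sites without partner. Of the 403 shared intervals, 50 were on X (12.4%, interval 9.35% to 16.0%), compared with 98 of 413 without partner (23.7%, 19.7% to 28.1%; odds ratio 0.456, adjusted exact p = 0.000272). Of all 5870 intervals, 15.5% were on X, and X was 17.7% of the summed chromosome length. In other terms, 33.8% of the 148 JMJD-2 intervals on X and 52.8% of the 668 on autosomes held a partner. The partner lists themselves were short of X sites, with 8.52% of SCC-1 peaks and 8.34% of SIN-3 peaks on X against 18.1% of JMJD-2 peaks, and their part in this difference was not tested. Read from the side of the partners, the direction turned: JMJD-2 was present in 25.6% of the 195 SCC-1 or SIN-3 intervals on X and in 16.4% of the 2156 on autosomes, so shared sites were more often on X than SCC-1 or SIN-3 intervals without JMJD-2 (12.4% and 7.44%, odds ratio 1.76, adjusted exact p = 0.0084). Among the classes, 14.1% of sites with both partners, 7.92% with SCC-1 only and 13.5% with SIN-3 only were on X, and no pair of classes passed the test (adjusted exact p from 0.308 to 1).

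**Figure D4:**
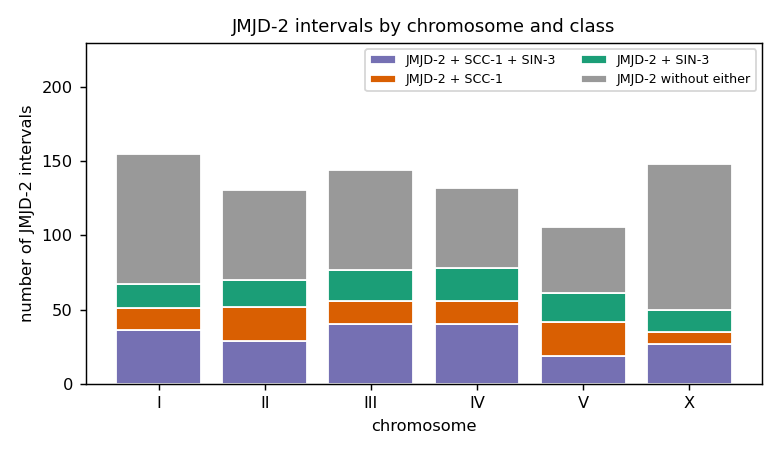
Number of JMJD-2 intervals (y axis) on each chromosome (x axis), stacked by class. X has 148 JMJD-2 intervals, of which 50 hold SCC-1 or SIN-3; on IV, 78 of 132 do.

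On the autosomes, the share of JMJD-2 intervals with a partner was 59.1% on IV (78 of 132), 57.5% on V (61 of 106), 53.5% on III (77 of 144), 53.4% on II (70 of 131) and 43.2% on I (67 of 155). Sites with both partners numbered 40 on III (27.8% of JMJD-2 intervals, interval 20.6% to 35.9%), 40 on IV (30.3%, 22.6% to 38.9%), 19 on V (17.9%, 11.2% to 26.6%) and 27 on X (18.2%, 12.4% to 25.4%). These intervals overlap, and the values were not tested. Per length, shared sites ran from 2.83 per Mb on X and 2.92 per Mb on V to 5.59 per Mb on III.

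JMJD-2 peaks had a larger median width on X than on autosomes, except at SCC-1-only sites. With both partners the median was 279 bp on X (27 peaks, quartiles 250.5 and 308.5 bp) and 241 bp on autosomes (164 peaks, quartiles 233 and 251 bp). SCC-1 peaks at the same sites had medians of 248 bp on X and 234 bp on autosomes. SIN-3 peaks there had medians of 235 bp on X and 237 bp on autosomes. At SCC-1-only sites the order was the other way, with JMJD-2 peaks at a median of 231 bp on X (8 sites) and 245 bp on autosomes (93 sites). At SIN-3-only sites the JMJD-2 medians were 260 bp on X and 243 bp on autosomes. At JMJD-2 sites without partner the medians were 258 bp on X and 247 bp on autosomes. At X from 1627012 to 1627331, for instance, a JMJD-2 peak of 313 bp covered SCC-1 and SIN-3 peaks of 230 and 233 bp almost wholly. At X from 1344917 to 1345210 a JMJD-2 peak of 294 bp contained both partner peaks (251 and 235 bp). These examples were picked after seeing the sites. The JMJD-2 peak was the narrowest at X from 161535 to 161832 (205 bp, with SCC-1 at 266 bp and SIN-3 at 210 bp). It was also the narrowest at X from 4711960 to 4712214 (238 bp, with SCC-1 at 245 bp and SIN-3 at 242 bp). The distances had no common direction. SIN-3 at SIN-3-only sites was at a median of 18 bp from JMJD-2 on X (15 sites) and 37.5 bp on autosomes (96 sites), and SCC-1 at SCC-1-only sites at 26 bp on X and 10.5 bp on autosomes. With both partners, SCC-1 was at 9.5 bp on X and 8 bp on autosomes, and SIN-3 at 11 bp on each. Widths and distances are given without a test.

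Along the autosomes, shared sites were less often in the arms than JMJD-2 sites without partner under 1 of the 2 limits tried. C. elegans autosomes have gene-dense centers and distal arms that carry most of the H3K9 methylation. With arms taken as the outer 33.3% of the length at either end, 63.5% of 353 shared sites and 63.8% of 315 sites without partner were in arms (odds ratio 0.985, interval 0.709 to 1.37, adjusted exact p = 1), close to the 63.5% of all autosomal intervals. With arms taken as the outer 25%, the shares were 41.4% and 51.1% (odds ratio 0.675, adjusted exact p = 0.035). The distribution shows where the limits differ. Within 8.33% of the length from an end lay 13.6% of shared sites and 21.9% of sites without partner, and between 25% and 33.3% lay 22.1% and 12.7%. Compared with SCC-1 or SIN-3 intervals without JMJD-2, the outer 25% held 41.4% of shared sites and 50.9% of those intervals (odds ratio 0.680, adjusted exact p = 0.00551), and the outer 33.3% held 63.5% and 66.5% (adjusted exact p = 0.476). No pair of the 3 classes passed for the arm share (61.6% with both, 67.7% with SCC-1 only, 62.5% with SIN-3 only, adjusted exact p from 0.578 to 0.995).

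**Figure D5:**
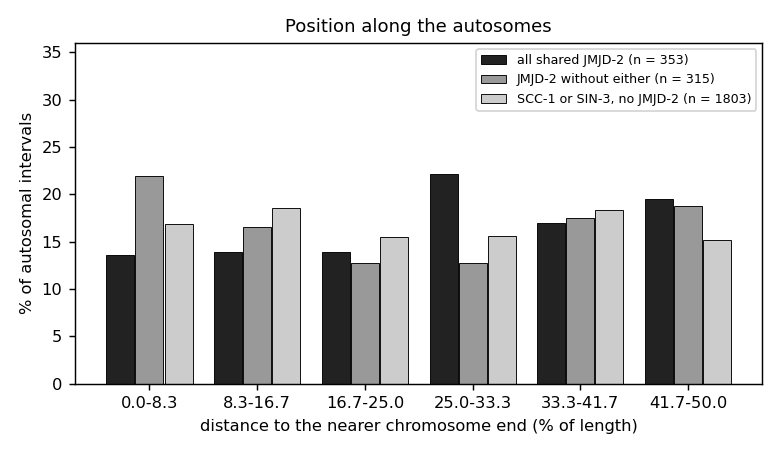
Share of autosomal intervals (y axis, %) by the distance of the interval from the nearer chromosome end (x axis, % of chromosome length, 6 equal bins), for shared JMJD-2 sites, JMJD-2 sites without partner, and SCC-1 or SIN-3 sites without JMJD-2. Shared sites are at 13.6% in the bin nearest the ends and 22.1% in the bin from 25% to 33.3%.

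Shared sites stood more alone than SCC-1 or SIN-3 sites without JMJD-2. Another bound interval of any of the 6 proteins lay within 2 kb of 121 shared sites (30.0%, interval 25.6% to 34.8%) and of 797 of the 1948 intervals with SCC-1 or SIN-3 but no JMJD-2 (40.9%, 38.7% to 43.1%; odds ratio 0.620, adjusted exact p = 0.000307). The share over all 5870 intervals was 38.9%. This difference did not pass with a limit of 5 kb (53.3% and 59.4%, adjusted exact p = 0.0881), nor when intervals of a class less than 5 kb apart were counted once, which by itself removes close neighbors (28.9% and 30.3%, adjusted exact p = 0.837). JMJD-2 sites without partner had a neighbor within 2 kb in 36.1% of cases (odds ratio 0.761, interval 0.561 to 1.03, adjusted exact p = 0.202), and with a limit of 1 kb the difference passed (18.1% and 25.7%, adjusted exact p = 0.0331).

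Among the neighbors, ZFP-1 was the protein with the largest gap between shared sites and JMJD-2 sites without partner. A separate ZFP-1 interval lay within 2 kb of 9.93% of shared sites (interval 7.19% to 13.3%), 19.4% of JMJD-2 sites without partner (15.7% to 23.5%) and 18.3% of all intervals. A ZFP-1 peak merged into the site itself does not count as a neighbor. Such peaks were in 27.0% of shared sites and 19.1% of sites without partner, the opposite order, and their part in the gap was not tested. Another JMJD-2 interval was within 2 kb of 9.43% of shared sites (6.76% to 12.7%), 16.5% of sites without partner (13.0% to 20.4%) and 6.05% of all intervals. SCC-1 was near 12.2% of shared sites (9.13% to 15.7%), 8.47% of sites without partner (5.97% to 11.6%) and 8.57% of all intervals. SIN-3 was near 14.4% (11.1% to 18.2%), 10.7% (7.85% to 14.0%) and 13.1% of the same groups. For SCC-1 and SIN-3 the intervals of shared sites and sites without partner overlap. These shares of single proteins were looked at after the shares with any neighbor and were not tested.

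A shared site had its nearest fellow at a median of 73580 bp (quartiles 19087 and 164616 bp), and 50 of the 403 (12.4%) had one within 5 kb. For the 413 JMJD-2 sites without partner the median was 55634 bp, and 66 (16.0%) had a fellow within 5 kb. For the 1948 SCC-1 or SIN-3 intervals without JMJD-2, a larger group, the median was 10643 bp. These distances depend on the number of sites in a group and were not tested. The 1-Mb window with the most, on II from 8100001 to 9100000, held 13 of them among 19 JMJD-2 intervals, against a mean of 4.02 per Mb. Sites with both partners were most frequent on I from 2300001 to 3300000, with 7 among 13 JMJD-2 intervals and a mean of 1.91 per Mb. For SCC-1 only and SIN-3 only the highest windows held 5 sites, on III from 11000001 to 12000000 and on I from 3700001 to 4700000, and 3 and 7 windows reached that number. Windows were picked as the highest, so they exceed the mean by construction.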

How the data were processed

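ChIP-seq of 6 proteins was performed in 12 samples, 2 biological replicates each, assigned to proteins from the sample titles. As the methods and list names give it, YAPC (for BLMP-1, MACS2) was run by the authors on single replicates, and peaks were kept by IDR with a P-value limit of 0.01. BWA, MACS2 and ce10 stand in the submitters' processing notes of all samples. Versions of these tools: not given in the sources used here. The deposited lists used here hold peak positions, so from them depth and its effect on precision are unknown and no stricter peak threshold could be set.

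Peaks sharing at least 1 bp were merged. The members, classes and measures were chosen with earlier results of these data known. Named sites were set by rule: all with 5 or more proteins, the smallest and largest midpoint distance per class (with both partners, the larger of the 2), the 1-Mb windows (steps of 100 kb) with the most sites, the 3 closest pairs, up to 10 sites on X with both partners, and the 3 nearest to each side of the limit. From the 10 on X, those printed were picked after seeing them. Shares were compared by Fisher's exact test with conditional odds ratios, a p-value under 0.05 after adjustment counting as passed. Chromosomes end at the last peak of any list. Coordinates count from 1. The gene table used here follows a different assembly, so sites were not assigned to genes and no sequence is shown. The merging and tests were tested on simulated data. Python 3.11.15, numpy 2.4.6, scipy 1.17.1 and matplotlib 3.10.9 were used.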

Additional observations from a re-analysis of the deposited data

How the results depend on the processing

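Of 133 odds ratios under alternatives, 126 kept their side of the 0.05 limit, 4 no longer passed and 3 newly passed, and no odds ratio that passed under either setting changed direction. Those no longer passing were ZFP-1 at shared sites against JMJD-2 sites without partner, with presence set by midpoints within 250 bp (odds ratio 1.54), ZFP-1 at sites with both partners against SIN-3 only, on autosomes (1.965), and neighbors of shared sites against SCC-1 or SIN-3 sites without JMJD-2, with a limit of 5 kb (0.782) and with clustered intervals counted once (0.933). Newly passing were the arm share of shared sites with the outer 25% as arms, against JMJD-2 sites without partner (0.675) and against SCC-1 or SIN-3 sites without JMJD-2 (0.680), and neighbors within 1 kb against JMJD-2 sites without partner (0.641). The causes were not tested, apart from the counting of clusters once, which removes neighbors by construction. Requiring direct overlap with the JMJD-2 peak, and removing BLMP-1 peaks over 1 kb, changed no call. Direct overlap and the 250-bp limit were run for the 4 comparisons among JMJD-2 sites. Another 10 comparisons, of TOP-2 against SIN-3 only, gave no finite odds ratio. No paired analysis was possible because each list combines both replicates, and no replicate could be left out for the same reason. The files used here give no depth, so what it limits is unknown.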

Other observations

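Of the 3 closest pairs of neighboring shared sites, 2 were of like composition, and the share over all neighboring pairs was not computed. On IV, intervals from 8469451 to 8469848 and from 8470066 to 8470282, 217 bp apart, both held JMJD-2 with SIN-3. Also on IV, intervals from 16415110 to 16415374 and from 16415627 to 16415876, 252 bp apart, both held JMJD-2 with SCC-1. On X, an interval with JMJD-2 and SIN-3 (4208563 to 4208815) lay 274 bp from one with JMJD-2, SCC-1, SIN-3 and ZFP-1 (4209090 to 4209369). Over longer range, the 403 shared sites formed 1660 pairs at distances between 20 kb and 1 Mb, and the 413 JMJD-2 sites without partner formed 1825. The 191 sites with both partners formed 363 pairs. Contact frequencies between the sites were not analysed here.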
